A study of Mus musculus with 12 samples.

Results

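The 3 genes described here, Mpeg1, Csf1r and Lyz2, are macrophage genes whose transcripts were measured in mouse liver after bulaquine. They are all of the 3 listed symbols, and each had 1 annotated spot that was measured in both dyes on all 12 arrays, among 11749 such spots of 23040 on the array. They were chosen by their log2 ratios at 6 h on these arrays, so their 6 h values are a description and carry no test. A summary of a macrophage list at 24 h was also known at that choice, so their 24 h tests are not independent of it. RNA of bulaquine-treated livers was hybridised against RNA of vehicle-treated livers on 2-colour spotted arrays, with 4 arrays for livers taken 6 h, 12 h or 24 h after the drug. Bulaquine is an antimalarial drug related to primaquine. At each time the drug RNA was in Cy5 on arrays F1 and F2 and in Cy3 on R1 and R2, and every value below is a log2 ratio turned so that bulaquine stands over vehicle. The labels give no strain, sex, age, dose or route, do not name the vehicle, and do not say whether F1 and R1 share RNA or whether vehicle animals served several times. What the p-values set each ratio against is thus array-to-array spread, some of which may be technical.

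Kupffer cells are the resident macrophages of the liver sinusoids, where they take up particles, dying red cells and microbes from portal blood. Their survival depends on the receptor Csf1r, a tyrosine kinase bound by the cytokines CSF1 and IL-34. Mpeg1 encodes perforin-2, a pore-forming protein of the phagosome, and Lyz2 encodes lysozyme M, which cuts the peptidoglycan of bacterial walls. All of the 3 genes are also expressed by monocytes and by macrophages of other tissues, and Lyz2 by neutrophils, so they mark macrophages rather than Kupffer cells alone. Clec4f, Vsig4, Timd4, Adgre1, Cd163, Cd5l, Marco and Folr2, which define Kupffer cells more closely, had no annotated spot here and could not be measured. In RNA of whole liver, fewer macrophages and less of a transcript per macrophage cannot be told apart.

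All of the 3 genes had lower fitted ratios at 6 h than at 12 h, and lower ones at 12 h than at 24 h. This order held for 16.2% of all tested spots. The choice of the genes by their 6 h ratios fixes part of the order, so that share is no baseline and nothing is read from it. At 6 h Mpeg1 was 1.79-fold, Csf1r 1.59-fold and Lyz2 1.41-fold lower in bulaquine livers than in vehicle livers. At 24 h Mpeg1 was 1.67-fold and Csf1r 1.20-fold higher in bulaquine livers, and Lyz2 stood at 1.03-fold. None of the 3 passed the test at 12 h or 24 h (limma, two-sided, Benjamini-Hochberg adjusted p under 0.05 over all spots), against 0.46% of all spots called at 12 h and 0.477% at 24 h. At an unadjusted p under 0.05, 0 of the 3 passed at 12 h and 1 of the 3, Mpeg1, at 24 h, against 8.6% and 13.1% of all spots at those times.

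**Figure D1:**
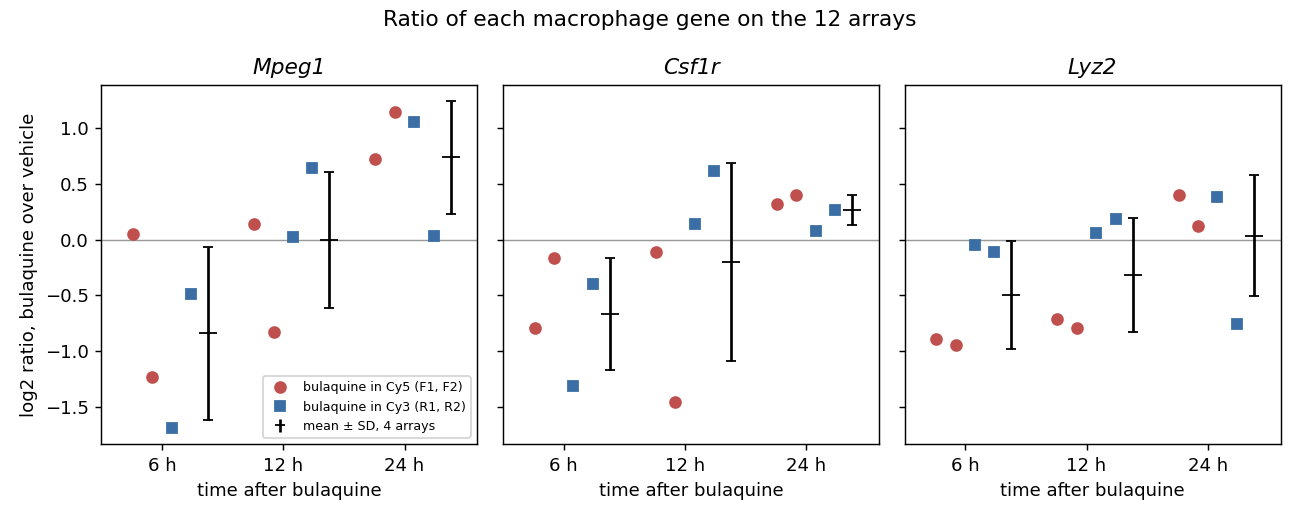
Log2 ratio of bulaquine over vehicle (y axis) for Mpeg1, Csf1r and Lyz2 on each of the 12 arrays, by hours after the drug (x axis); circles are arrays with bulaquine in Cy5, squares those with bulaquine in Cy3, and bars give the mean ± SD of 4 arrays. All 4 arrays of Csf1r and of Lyz2 lie below 0 at 6 h, all 4 of Mpeg1 and of Csf1r lie above 0 at 24 h, and at 12 h the arrays of each gene lie on both sides of 0.

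Mpeg1 had log2 ratios of 0.05, -1.23, -1.69 and -0.49 on arrays F1, F2, R1 and R2 at 6 h. Of these, 3 lay below 0 and F1 lay just above it. The fitted ratio was -0.84 (SE 0.31), at the 2.03rd percentile of all spots. At 12 h the same 4 array names gave 0.14, -0.83, 0.03 and 0.64, with F2 far below the other three and a fitted ratio of -0.0039 (95% confidence interval -0.71 to 0.70; limma adjusted p = 0.997). At 24 h the values were 0.72, 1.14, 1.06 and 0.03, all above 0. The fitted ratio at 24 h was 0.74 (SE 0.31, interval 0.03 to 1.44), with a limma p of 0.0419 that became 0.361 after adjustment over all spots. The ratio at 24 h exceeded that at 12 h by 0.74 (SE 0.45, interval -0.25 to 1.74; limma adjusted p = 0.643), and that at 6 h by 1.58 (SE 0.45), which was not tested. The 24 h minus 12 h difference was 0.42 without F2 of 12 h, 0.25 with no background correction and 0.16 with normexp and its offset of 50.

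The Mpeg1 spot was faint. Its background-corrected intensity in bulaquine RNA at 6 h was 701, 342, 304 and 691 on F1, F2, R1 and R2, against 381, 720, 1588 and 984 in vehicle RNA, before any normalization. The scanner software's signal-to-noise score of this spot was under 1 in 8 of 24 channels, and its median over the channels was 1.27. In 3 of the 4 bulaquine channels at 6 h the score was 0.661, 0.383 and 0.401, and it was 1.29 on R2. Its 6 h ratio was -0.21 with no background correction and -0.042 with the normexp method. Normexp here also added an offset of 50 to both dyes, and the part of that offset in the change was not tested. At 24 h the same settings gave 0.29 and 0.18.

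Csf1r had log2 ratios of -0.79, -0.17, -1.31 and -0.40 on F1, F2, R1 and R2 at 6 h. All 4 lay below 0, as they did for 5.81% of all spots (the choice of the gene used these values), and the fitted ratio was -0.67 (SE 0.29), at the 3.65th percentile. At 12 h the values were -0.11, -1.46, 0.14 and 0.61, with the F arrays below 0 and the R arrays above it. The fitted ratio at 12 h was -0.20 (interval -0.85 to 0.44; limma adjusted p = 0.876), and without array F2 of 12 h it was 0.23. At 24 h the values were 0.32, 0.40, 0.08 and 0.27, close together and all above 0, as were those of 6.52% of all spots. The fitted ratio at 24 h was 0.27 (SE 0.29, interval -0.38 to 0.91; limma adjusted p = 0.773). Of the 3 genes, Csf1r alone had all its 6 h arrays below 0 and all its 24 h arrays above 0, a pattern of 0.528% of all spots from which nothing is read here, as the 6 h values chose the gene. The 24 h minus 6 h difference was 0.93 (SE 0.41) and was not tested, while the 24 h minus 12 h difference was 0.47 (SE 0.41, interval -0.44 to 1.38; limma adjusted p = 0.719). The 24 h minus 12 h difference was 0.036 without F2 of 12 h, 0.74 without R2 of 12 h and 0.10 with normexp and its offset.

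The Csf1r spot had a median signal-to-noise score of 3.13, and 2 of its 24 channels were under 1. One of those was the bulaquine channel of R1 at 6 h, at 0.93, which was also the array with the lowest Csf1r ratio. Without that array the 6 h ratio was -0.39. With normexp and its offset the 6 h ratio was -0.23 and with no background correction -0.35.

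Lyz2 lies beside its paralog Lyz1 on chromosome 10. The coding sequences of these lysozyme genes are nearly identical, Lyz1 being known mainly from Paneth cells of the gut, and Lyz1 had no annotated spot here. The probe sequence of the Lyz2 spot was not used here, so signal from Lyz1 transcripts cannot be told apart from that of Lyz2. To show how close the copies are, the 100 bases before each transcription start are printed from RefSeq (GRCm38.p6, minus strand, 5′ to 3′), with capitals at the bases that differ between the copies. They lie at chr10:117282273-117282372 for Lyz2 and chr10:117292869-117292968 for Lyz1.
Lyz2: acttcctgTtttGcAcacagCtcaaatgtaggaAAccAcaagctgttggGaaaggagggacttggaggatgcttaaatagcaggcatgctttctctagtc
Lyz1: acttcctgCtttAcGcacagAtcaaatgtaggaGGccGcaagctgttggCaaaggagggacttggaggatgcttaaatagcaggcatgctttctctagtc
The copies were identical at 92 of these 100 bases and at 49 of the 50 bases after the start. Over all 250 bases before the start, which take in sequence farther upstream, 60.8% of positions were identical. Bases were compared position by position with no gaps, so that share does not measure how far the copies differ upstream.

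Lyz2 had log2 ratios of -0.89, -0.95, -0.05 and -0.11 on F1, F2, R1 and R2 at 6 h. All 4 lay below 0, and the arrays fell into pairs by dye, averaging -0.92 with bulaquine in Cy5 and -0.08 with bulaquine in Cy3. The fitted ratio was -0.50 (SE 0.23), at the 6.64th percentile. The same split by dye was present at 12 h, with -0.71 and -0.80 on the F arrays and 0.06 and 0.18 on the R arrays. The fitted ratio at 12 h was -0.32 (interval -0.83 to 0.20; limma adjusted p = 0.717), and it was -0.065 with normexp and its offset. At 24 h the values were 0.40, 0.12, 0.38 and -0.76, with R2 alone below 0. That array carried the lowest scores of this spot, 1.05 in each of the bulaquine and vehicle channels, where the median over all 24 channels was 8.52. The fitted ratio at 24 h was 0.04 (interval -0.48 to 0.55; limma adjusted p = 0.975), and without R2 of 24 h it was 0.41 (adjusted p = 0.330). The ratio at 24 h exceeded that at 12 h by 0.35 (SE 0.32, interval -0.37 to 1.08; limma adjusted p = 0.735). That difference was 0.14 without F1 of 24 h, 0.73 without R2 of 24 h and 0.084 with normexp and its offset. None of the 3 differences between 24 h and 12 h passed, against 0.179% of all spots.

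A dye effect, the excess of Cy5 over Cy3 that a spot shows whatever RNA is in it, was fitted for each spot along with the 3 times. It was called at 28.9% of all spots. For Mpeg1 it was 0.04 (adjusted p = 0.909), for Csf1r -0.10 (adjusted p = 0.694) and for Lyz2 -0.21 (adjusted p = 0.266), all by limma, so none of the 3 passed. The F and R arrays still differed within a time. Csf1r averaged -0.78 with bulaquine in Cy5 and 0.38 with it in Cy3 at 12 h, and Mpeg1 averaged -0.34 and 0.33 in the same order. At 24 h the means with bulaquine in Cy5 and in Cy3 were 0.93 and 0.54 for Mpeg1, 0.36 and 0.17 for Csf1r, and 0.26 and -0.19 for Lyz2. Since each time holds both orientations equally, a dye effect of a spot cancels from its fitted ratio, and the 12 h ratios of Mpeg1, Csf1r and Lyz2 without the dye effect in the model were the same -0.0039, -0.20 and -0.32.

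**Figure D2:**
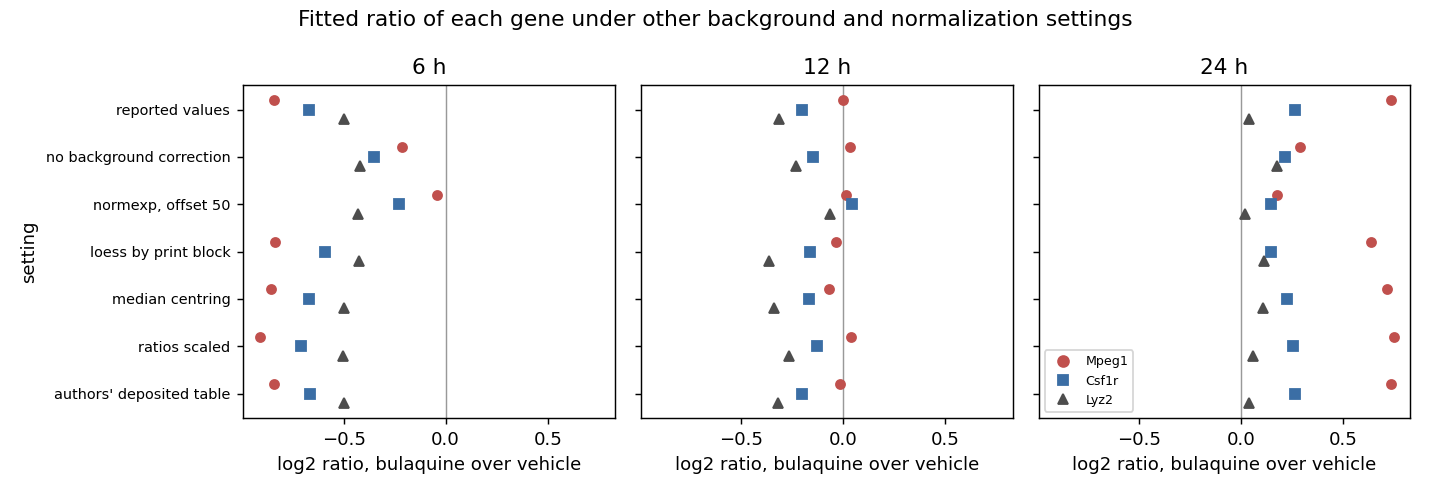
Fitted log2 ratio of bulaquine over vehicle (x axis) for Mpeg1 (circles), Csf1r (squares) and Lyz2 (triangles) at each time, under other treatments of the background and other normalizations (y axis). At 6 h all points lie below 0, the Mpeg1 ratio of -0.84 becoming -0.21 with no background correction and -0.042 with normexp (offset 50), while Lyz2 keeps between -0.50 and -0.42.

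Levels were also read for each channel after normalization within and between arrays. Mpeg1 averaged 8.83 ± 0.63 in bulaquine livers and 9.67 ± 0.56 in vehicle livers at 6 h (log2 intensity, SD, n = 4 arrays, as for all levels here). At 12 h it averaged 10.12 ± 1.01 in bulaquine and 10.13 ± 0.67 in vehicle livers, and at 24 h 10.40 ± 0.30 in bulaquine and 9.67 ± 0.75 in vehicle livers. The bulaquine livers at 6 h stood lowest of the 6 conditions, below vehicle livers at 24 h by more than the SD of either, although the arrays of these conditions overlapped. Every other step between neighbours in the order was within the SD of at least one of the pair.

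Csf1r averaged 11.03 ± 0.86 in bulaquine livers and 11.69 ± 0.39 in vehicle livers at 6 h. At 12 h the levels were 11.38 ± 0.58 in bulaquine and 11.59 ± 0.90 in vehicle livers, and at 24 h 10.97 ± 0.999 in bulaquine and 10.70 ± 1.04 in vehicle livers. Vehicle livers at 6 h stood highest and vehicle livers at 24 h lowest, and no neighbours in the order differed by more than their SD. Lyz2 averaged 12.70 ± 0.51 in bulaquine and 13.20 ± 0.72 in vehicle livers at 6 h, 12.51 ± 1.0 in bulaquine and 12.82 ± 0.71 in vehicle livers at 12 h, and 11.98 ± 1.65 in bulaquine and 11.94 ± 1.13 in vehicle livers at 24 h. Its neighbours in the order likewise did not differ by more than their SD. For Csf1r the level in vehicle livers was lower at 24 h than at 6 h by about as much as the ratio was higher. For Lyz2 the levels were lower at 24 h than at 6 h in vehicle livers (11.94 against 13.20) and in bulaquine livers (11.98 against 12.70). Levels were not tested across times.

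**Figure D3:**
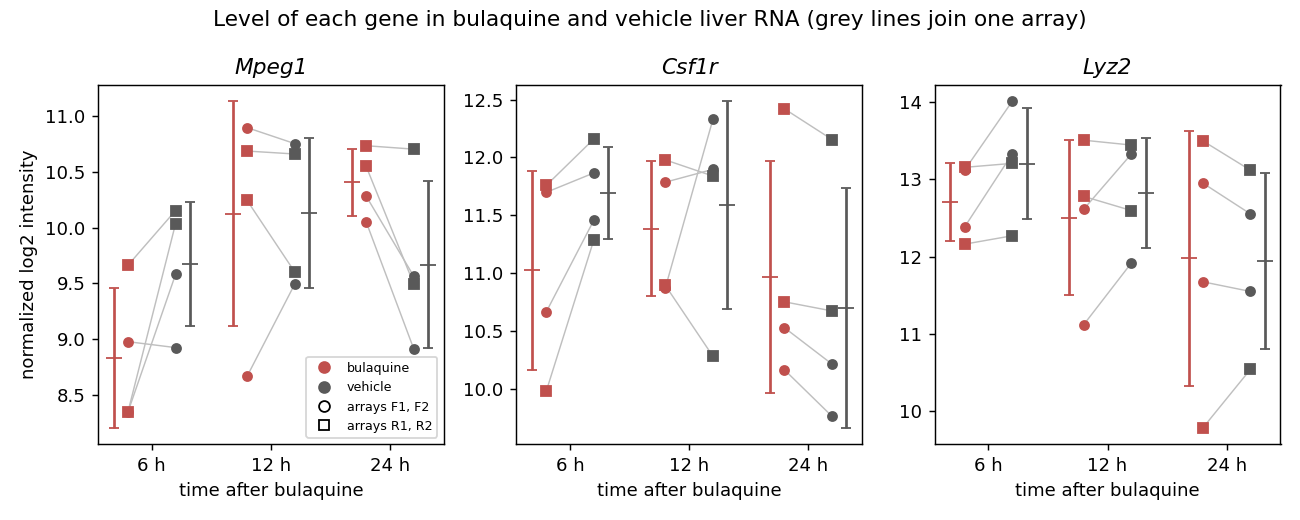
Normalized log2 intensity (y axis) of Mpeg1, Csf1r and Lyz2 in bulaquine (red, left of each pair) and vehicle (grey) liver RNA at each time (x axis); grey lines join the 2 channels of an array, circles are F and squares R arrays, and bars give mean ± SD of 4 arrays. Mpeg1 is lowest in bulaquine livers at 6 h, at 8.83 ± 0.63, and the levels of Csf1r and Lyz2 overlap between all conditions.

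Across the 12 arrays the ratio of Mpeg1 followed that of Csf1r with a Pearson r of 0.74, and 0.56 once the mean of each time was taken out. The r of Mpeg1 with Lyz2 was 0.52 and that of Csf1r with Lyz2 was 0.45, or 0.32 and 0.26 without the time means. These are descriptions over 12 arrays whose points share array, dye and time, and the choice of the genes by their 6 h ratios fixes part of their likeness. The spots of Mpeg1 and Csf1r also lie in the same print block, number 16 of 48, while Lyz2 lies in block 22. The other 282 tested spots of block 16 had a median of -0.06 at 6 h and 0.11 at 24 h, and normalization within each block gave Mpeg1 -0.83 and Csf1r -0.59 at 6 h. At 24 h it gave Mpeg1 0.64 and Csf1r 0.15, against 0.74 and 0.27 without it.

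The genes most like each of the 3 over the 12 arrays were not macrophage genes of the list used here. For Mpeg1 they were Cdca4 (Pearson r of 0.87), Polh (0.84), Csmd1 (0.83), Lman2 (0.81) and Rtn4 (0.78). For Csf1r they were Fkbp4 (0.86), Aurka (0.85), Arid1a (0.85), Irak2 (0.82) and Rps21 (0.81). For Lyz2 they were Rps3a1 (0.89), Lima1 (0.87), Fdft1 (0.87), Nprl2 (0.86) and Arpc2 (0.86). Their sizes differed: Cdca4 had ratios of -0.69, 0.50 and 1.28 at 6 h, 12 h and 24 h, and Rps3a1 had 0.10, 0.06 and 0.16. Each was the best of all tested spots of other genes over 12 points, so the values are high in part by selection.

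A list of 44 macrophage genes had 16 genes with a spot and 12 measured on all arrays, the 3 genes above among them. Without those 3, the other 9 did not lean below 0 at 6 h: 5 lay below and 4 above, with a median of -0.02, beside -0.00063 over all spots. At 12 h their median was 0.01, and at 24 h 8 of the 9 lay above 0 with a median of 0.23, where 49.1% of all spots lay below 0 and their median was 0.0060. A summary of a macrophage list at 24 h was known when the 3 genes were chosen, so the 24 h count is a description. The lowest of the other 9 at 6 h was Cyba at -0.62. None of the 12 was called at 12 h, and 1 was called at 24 h, against 0.46% and 0.477% of all spots.

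That gene was Cybb, the catalytic subunit of the phagocyte NADPH oxidase. It had log2 ratios of 0.65, 1.02, 0.21 and 0.30 on F1, F2, R1 and R2 at 24 h, all above 0. Cybb rose at 24 h by 0.54 (SE 0.09, limma adjusted p = 0.0462), after 0.19 at 6 h and -0.09 at 12 h. The call was lost when any of the 12 arrays was left out, the lowest adjusted p then being 0.0635, and without the dye effect in the model (adjusted p = 0.484). Cyba, which forms the same membrane complex as Cybb, had -0.62, -0.33 and 0.23 at 6 h, 12 h and 24 h and was not called at 12 h or 24 h.

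Among the receptors of the list, Fcgr1, the high-affinity IgG receptor, had 0.35, -0.07 and 0.09 at 6 h, 12 h and 24 h. Fcer1g, the signalling chain that Fcgr1 needs, had 0.19, -0.03 and 0.64. At 24 h its 4 arrays ran from -0.33 to 1.42, with an adjusted p of 0.301 by limma. Mertk, a receptor for dying cells, had -0.17, 0.01 and -0.09, and a fainter spot of the same gene had -0.20, 0.32 and -0.21. Of the remaining genes, Laptm5, a lysosomal membrane protein of blood cells, had -0.28, 0.08 and 0.29, and the lysosomal protease Lgmn had 0.12, 0.31 and 0.48. The iron exporter Slc40a1 had -0.02, 0.50 and 0.05, and the heme-degrading enzyme Hmox1 had -0.17, 0.20 and 0.04, both genes of iron recycling in Kupffer cells that hepatocytes can also express. None of these passed the test at 12 h or 24 h.

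**Figure D4:**
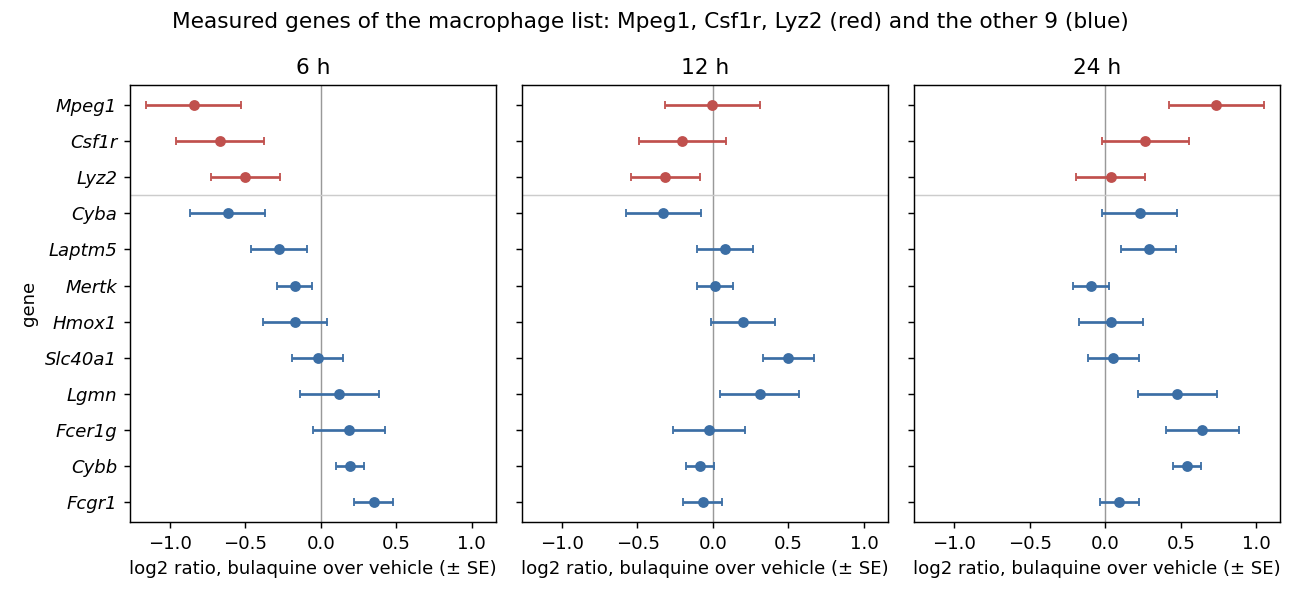
Fitted log2 ratio of bulaquine over vehicle (x axis, ± SE) at each time for the 12 measured genes of the macrophage list (y axis), with Mpeg1, Csf1r and Lyz2 in red above the other 9 in blue. At 6 h the 3 red points lie below 0 while 5 of the 9 blue points lie below and 4 above, and at 24 h every gene but Mertk lies above 0.

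A further 4 genes of the list were measured on most arrays but not all. At 6 h the oxidase subunit Ncf4 had 1.31, the transcription factor Irf8 -0.15, the receptor kinase Axl -1.13 and the leukocyte phosphatase Ptprc -0.10. With them, 11 of 16 genes lay below 0 at 6 h with a median of -0.16. At 24 h 13 of 16 lay above 0 with a median of 0.21. Of all spots measured on all arrays, 50.1% lay below 0 at 6 h and 49.1% at 24 h. The 16 include Mpeg1, Csf1r and Lyz2, whose choice by their 6 h ratios fixes part of the 6 h count, so nothing is read from it. Cybb had a limma adjusted p of 0.169 in the fit that took in these further genes, which held 19634 spots.

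Genes of the pathway downstream of Csf1r had fitted ratios mostly above 0 at 6 h, but the direction differed between arrays. Of 13 other measured genes of the CSF1 receptor pathway, 3 lay below 0 and 10 above at 6 h, with a median of 0.12. At 24 h 10 lay above 0, with a median of 0.14. Of all spots, 50.1% lay below 0 at 6 h and 49.1% at 24 h. The medians of the 13 genes on single arrays ran from -0.31 to 0.45 at 6 h. The transcription factor Ets2, which acts downstream of this receptor in macrophages, had 0.82, 0.76 and -0.41 at 6 h, 12 h and 24 h. The kinase subunit Pik3ca had 0.08, 0.62 and 0.38, and a fainter spot of it lay below 0 at each time, at -0.92, -0.29 and -0.31. Values were 0.46, 0.10 and 0.35 for the phospholipase Plcg2, and 0.09, -0.52 and -0.37 for the phosphatase Ptpn6. None of the 13 was called at 12 h or 24 h, and nearly all of these signalling genes are expressed by many cell types.

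Lysosomal genes lay on both sides of 0 at 6 h. Of 24 measured without Lyz2, 14 lay below 0 at 6 h, with a median of -0.05. At 24 h 16 lay above 0, with a median of 0.15. The shares of all spots below 0 were 50.1% at 6 h and 49.1% at 24 h. The enzyme Gusb, on a faint spot, had -0.52, 1.49 and 0.65 at 6 h, 12 h and 24 h with an SE of 1.15, and its 24 h arrays ran from -0.98 to 4.32. Values were 0.88, -0.23 and 0.79 for the sialidase Neu1 (SE 0.41), and -0.75, -0.20 and -0.12 for progranulin, Grn (SE 0.23). No gene of this list was called at 12 h or 24 h. Besides Mpeg1, 1 gene with the same pore-forming fold was measured, the neuronal Astn2, at -0.81, 0.10 and -0.01.

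Markers of other cells of the liver were read alongside. Over all spots, 50.1% lay below 0 at 6 h and 49.1% at 24 h. The 3 measured MHC class II genes, which macrophages, dendritic cells and B cells share, lay below 0 at 6 h with a median of -0.39, and 2 of the 3 lay below 0 at 24 h. At 6 h the fits were H2-Eb1 at -0.81 (arrays from -2.71 to 0.94), H2-Aa at -0.39 and H2-DMa at -0.20. Of 12 measured interferon-inducible genes, many of which macrophages express, 11 lay below 0 at 6 h and 5 at 24 h. Their 6 h median was -0.59, or -0.47 with all spots of a gene averaged, with Irf1 at -1.06 and Irf9 at -0.76. This list was chosen with earlier results of these data known, so its counts are a description. Of 6 monocyte and neutrophil markers, 3 lay below 0 and 3 above at 6 h, and 5 of the 6 lay below 0 at 24 h with a median of -0.11. The neutrophil and acute phase gene Lcn2 had 0.90, 0.06 and 0.88 at 6 h, 12 h and 24 h and S100a9 0.50, -0.47 and -0.25, beside -0.03, -0.21 and -0.06 for Csf3r and -0.01, 0.0029 and -0.22 for Mpo. Medians at 6 h were -0.02 over 4 endothelial, -0.08 over 11 stellate cell and 0.02 over 8 hepatocyte markers. At 24 h the medians were -0.18 (all 4 below 0), 0.03 and -0.0079 over the same genes. Of the 8 hepatocyte markers, 4 lay below 0 and 4 above at 6 h, with Tdo2 at 0.76 and the fibrinogen chain Fga at 0.72. Apoa1 had -0.0036, -2.20 and 0.22 at 6 h, 12 h and 24 h, with an SE of 1.15. Ttr had -0.11, -0.06 and -0.36 at these times. Fga stood at 0.59 at 12 h (limma adjusted p = 0.0470) and at 0.06 at 24 h. Its 12 h call held in 6 of 12 other settings and in 0 of the 12 fits that left out an array. The lowest limma adjusted p in those 12 fits was 0.0576. The 1 measured red cell marker, Car2, had -0.81 at 6 h, where its arrays ran from -3.35 to 0.92, and 1.05 at 24 h, where they ran from 0.59 to 1.54. The part of any of these in the ratios of Mpeg1, Csf1r and Lyz2 was not tested.

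Between 9.66% and 24.5% of spots had no signal above background in at least one dye on an array, the most on array F2 of 12 h, where each of the 3 genes had its lowest 12 h ratio. Leaving that array out gave 0.32 for Mpeg1 at 12 h (-0.0039 with it). Albumin, the main hepatocyte secretory transcript, stood at the 99.98th percentile of brightness.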

How the data were processed

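The authors deposited, for each spot and dye, the foreground intensity, the local background intensity and their difference, and a signal-to-noise score of unstated formula. The design text of the series names ImageQuant v5.0 for scanning, ArrayVision v8.0 for reading the images and Avadis v4 for LOWESS normalization. The authors' deposited log2 ratio table correlated at 0.998 to 1.000 with ratios recomputed here, and its column medians ran from -0.014 to 0.036. Corrected values equalled foreground minus background within 0.001, with 0 where background was higher.

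Zeros were set to missing and log2(Cy5/Cy3) was normalized by loess on each array (span 0.3, 4 iterations). In limma 3.58.1 (R 4.3.3) the 11749 spots measured on all 12 arrays were fitted with 1 term per time, signed by dye orientation, and a dye effect, leaving 8 residual degrees of freedom, and p-values were adjusted by Benjamini-Hochberg. Levels used Aquantile normalization between arrays. The procedure was tested on simulated data. Precision is limited by the number of arrays, with a median SE of a ratio of 0.22.

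The deposited probe numbers were matched to spots by reordering 48 blocks of 480 spots between row-wise and column-wise order of a 12 by 4 grid. In that order the brightness of 2142 genes with a pair of spots correlated at 0.165 by rank, against 0.0177 in the deposited order, so gene names rest on an inferred order. A gene symbol came from 15114 probes, while 206 probes with several symbols and 7720 spots without one were left unnamed.

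The genes and lists were chosen with earlier results of these data known. Named genes are the 3 genes, the 5 one-symbol genes of highest Pearson r with each, all measured macrophage genes (brightest spot), and up to 4 of each other list by largest absolute mean over the times. All 13 lists were read; for dendritic cells the 1 measured gene, Cst3, had 0.16 at 6 h, and for lymphocytes Cd3e had -0.05 and Cd4 0.02. No array was left out of the reported fit. Alternatives covered background, normalization, filters, dye effect, replicate structure, single arrays and probe order.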

Additional observations from a re-analysis of the deposited data

Results flagged for a closer look

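Cyba on array R1 at 12 h, at 0.35, stood far from the other 3 arrays of that time, which ran from -0.65 to -0.50. Its gap to the nearest of them was 0.850 of the whole range, above Dixon's 95% critical value for 4 values, and it was the 1 such group among 36 tested (12 macrophage genes at 3 times), where chance gives about 1 in 20. For Csf1r every array lay below 0 at 6 h and every array above 0 at 24 h, and the 24 h minus 6 h difference of 0.93 was not tested. This pattern held for 0.528% of all spots, and nothing is read from it, as the 6 h values chose the gene.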

How the results depend on the processing

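Mpeg1, Csf1r and Lyz2 were called at 12 h, at 24 h or between these times in none of the alternatives or the 12 fits that left out an array. Their 6 h ratios kept their sign in all of these with the spot order used here, but many of these fits could not change those ratios. They were identical without the dye effect, with dye-swap pairs averaged, with a random replicate block and with each time fitted alone. They were also identical under filters that kept the spot, and without any array of 12 h or 24 h. Only settings of background and normalization, the authors' ratios and fits without a 6 h array could change the sign. The alternatives gave between -0.91 and -0.042 for Mpeg1, -0.71 and -0.23 for Csf1r and -0.50 and -0.42 for Lyz2. With single arrays left out they lay between -1.16 and -0.54, -0.89 and -0.39, and -0.59 and -0.41. The Mpeg1 ratio at 6 h was -0.042 with normexp, which in all values here changes the background method and adds an offset of 50 together, and with probe numbers taken as deposited, which puts its name on another spot, 0.44. At 12 h the Mpeg1 ratio changed sign to 0.034 with no background correction, 0.015 with normexp, 0.039 with scaled ratios and 0.17 with deposited numbers, and ran from -0.26 to 0.32 with single arrays left out. Its 24 h minus 12 h difference was -0.13 with deposited numbers, which gave Csf1r and Lyz2 no value on all arrays. The Csf1r ratio at 12 h was 0.041 with normexp and ran from -0.47 to 0.23 with arrays left out, and Lyz2 at 24 h ran from -0.18 to 0.41. At 12 h Lyz2 was -0.065 with normexp. The 24 h minus 12 h differences with arrays left out ran from 0.42 to 0.996 for Mpeg1, 0.036 to 0.74 for Csf1r and 0.14 to 0.73 for Lyz2. The Lyz2 sign at 24 h changed without F1, F2 or R1 of 24 h. The faint Mpeg1 spot had no value without the dimmest 30% of spots. The cause of these changes was not tested.

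Counts of called spots depended more on the settings. At 12 h, against 54, there were 0 with normexp, 32 without a dye effect, 9 with dye-swap pairs averaged, 0 with each time fitted alone and 37 to 59 with single arrays left out. At 24 h, against 56, there were 193 with no background correction, 151 with normexp, 148 without the dimmest spots, 31 with spots on 8 or more arrays, 14 without a dye effect, 0 with pairs averaged, 0 with each time alone and 15 to 44 with arrays left out. For 24 h minus 12 h, against 21, there were 99 with no background correction, 0 with normexp, 40 with median centring, 35 with scaled ratios, 56 without the dimmest spots, 6 with spots on 8 or more arrays, 0 without a dye effect, 0 with pairs averaged and 3 to 16 with arrays left out. With array numbers as a random replicate block the counts were 132 at 24 h and 61 for 24 h minus 12 h, and with array names as a fixed replicate block 0 for 24 h minus 12 h. Same-named arrays had residual correlations of -0.22 to -0.08 and same-numbered ones of -0.39 to -0.18. The fit itself draws such correlations below 0, so they cannot show whether the numbers pair the arrays. The Cybb ratio at 24 h ran from 0.46 to 0.59 over 12 alternatives and was called in 8 of them, with adjusted p from 0.00396 to 0.517.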
